A study of Mus musculus with 6 samples.

Results

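Oxytocin and endothelin are short peptides that act on G protein-coupled receptors of contractile cells, and 6 genes of this system were followed in mouse mammary cells, chosen by name. They were the oxytocin receptor Oxtr, the vasopressin receptor Avpr1a, the endothelin receptors Ednra and Ednrb, and the endothelin precursor genes Edn1 and Edn3. They are 6 of 20660 genes that could be named on the array, and 7 probes measured them. After removal of dim probes, 5 probes of 4 genes were left for testing, and Avpr1a and Edn3 fell below the limit.

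In the lactating gland, oxytocin from the posterior pituitary binds its receptor on myoepithelial cells, which then contract and eject milk. The receptor signals through Gq to phospholipase C and inositol trisphosphate, which releases calcium, and through G proteins of other classes, and both routes lead to phosphorylation of the myosin light chain. Endothelins are cut from larger precursors by endothelin converting enzymes and act through Ednra and Ednrb on smooth muscle, endothelium and cells derived from the neural crest.

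RNA of 3 samples of E18.5 fetal mammary cells and of 3 samples of adult basal mammary cells was read on Agilent SurePrint G3 Mouse GE arrays in one color, with an array for each biological replicate. The fetal cells came from glands at embryonic day 18.5 and were sorted as EpCAM++CD49f+ after exclusion of CD31+, CD45+ and Ter119+ cells. The adult basal cells came from glands of 8 to 12 week females and were sorted as EpCAM+CD49f+ after exclusion of the same cells and of BP-1+ stromal cells. All mice were labelled as female C57Bl6J with no treatment or engineered allele, the fetal glands were digested for a shorter time than the adult glands, and age, gate and digestion cannot be told apart here. The labels and the methods name different low-input labelling kits. How many glands or animals made up a replicate is not given in the sources used here.

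Depending on the array, 76.4% to 83.3% of probes stood well above background, and no spot was saturated. Values below are log2 of the quantile normalized signal, and a difference is the fetal minus the adult basal mean. A probe was called different when its Holm-adjusted p from limma was at most 0.05 and the difference was at least 1 in either direction. By this rule 2270 of 20448 probes were called, or 11.1%, of which 1210 were higher in fetal cells (5.92% of those tested) and 1060 higher in adult basal cells (5.18%). The 3 arrays of one population did not overlap the 3 of the other for 69% of the tested probes, so that separation of the groups alone is the usual outcome on these arrays. All levels belong to sorted populations in bulk, where fewer cells of a type and less RNA per cell cannot be told apart.

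The gate antigens were read on the same arrays. Epcam had a fetal mean of 12.97 ± 0.10 (SD, n = 3) and an adult basal mean of 11.09 ± 0.19 (SD, n = 3), a difference of 1.88 (SE 0.13; Holm-adjusted p from limma 0.0260), a call lost under 9 of 17 alternatives. Itga6, which encodes CD49f, was at 15.74 and 15.73. Pecam1 (CD31) was at 9.10 and 9.25 and Ptprc (CD45) at 6.75 and 7.07, with overlapping arrays in both cases, whereas Enpep, the gene of BP-1, was above background on none of the 6 arrays.

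Among the receptors, Oxtr was lower in fetal cells. The fetal arrays gave 10.77, 11.27 and 10.82, and the adult basal arrays 14.76, 14.90 and 15.07. All 3 fetal arrays lay far below all 3 adult basal arrays, but they were themselves well above background, with processed signals of 1905 to 2945 before normalization against 23748 to 31338. The means were 10.96 ± 0.28 (SD, n = 3) and 14.91 ± 0.16 (SD, n = 3). The difference was -3.96 (SE 0.16, 95% interval -4.34 to -3.58; Holm-adjusted p from limma 7.42e-04), or 15.5-fold on the linear scale. By p-value the Oxtr probe ranked 515 among the 20448 tested. The arrays lay on 2 slides, the first with 1 fetal and 2 adult basal arrays and the second with 2 fetal and 1 adult basal. The difference was -4.15 within the first and -3.85 within the second. Differences within a slide, here and below, set 1 array against 2 and were not tested.

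**Figure D1:**
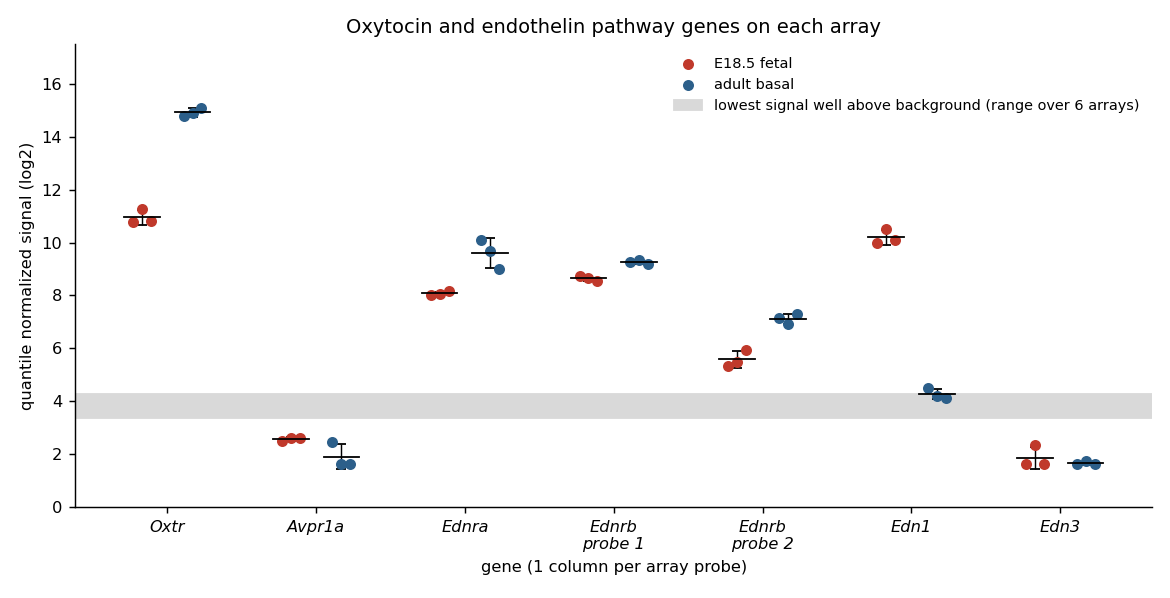
Quantile normalized log2 signal (y axis) of the 7 probes of the 6 genes (x axis) on 3 E18.5 fetal (red) and 3 adult basal (blue) arrays, with means (long bars) and SD (short bars), and a grey band for the lowest signal well above background on an array. Oxtr sits higher on every adult basal array and Edn1 on every fetal array, Ednra and both Ednrb probes are separated by smaller gaps, and Avpr1a and Edn3 lie below the band.

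The vasopressin receptor Avpr1a, the closest relative of Oxtr in this set, was at background on all 6 arrays. Its signal was 2.51, 2.62 and 2.63 in fetal and 2.47, 1.62 and 1.65 in adult basal cells, below the lowest signal well above background of every array (3.39 to 4.29). No fold change is given for it, since the probe was not well above background in either population.

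Both endothelin receptors had higher means in adult basal cells, and neither passed the call. Ednra, the receptor that prefers endothelin-1 and endothelin-2, was at 8.03, 8.05 and 8.15 in fetal cells and at 10.11, 9.67 and 8.99 in adult basal cells. The fetal arrays were close together, whereas the adult basal arrays spread over more than 1 log2 unit, and the groups did not overlap. The difference was -1.51 (SE 0.26, 95% interval -2.13 to -0.90) with a Holm-adjusted p from limma of 1, and a Benjamini-Hochberg adjusted p of 0.00167, so Ednra would be called under the more permissive adjustment. It was -1.52 within the first slide and -1.57 within the second.

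Ednrb, which binds all 3 endothelins, was read by a pair of probes to the same transcript accession, and these gave differences of unequal size. The brighter probe was at 8.72, 8.67 and 8.54 in fetal and 9.28, 9.34 and 9.18 in adult basal cells, a difference of -0.62 (SE 0.10, 95% interval -0.86 to -0.38). The dimmer probe was at 5.34, 5.50 and 5.95 in fetal and 7.14, 6.90 and 7.30 in adult basal cells, a difference of -1.52 (SE 0.18, 95% interval -1.95 to -1.08). Both probes were higher on every adult basal array, with Holm-adjusted p-values from limma of 1 and Benjamini-Hochberg adjusted p-values of 0.00131 and 2.73e-04. The second difference was larger than the first by 0.89, with a 2-sided exact permutation p of 0.1, which is the smallest that 3 arrays against 3 allow. With the probes averaged, the difference of Ednrb was -1.07 and was again not called.

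Among the ligands, Edn1 was far higher in fetal cells. The fetal arrays gave 9.97, 10.50 and 10.11, and the adult basal arrays 4.50, 4.22 and 4.14. The means were 10.19 ± 0.27 (SD, n = 3) and 4.29 ± 0.19 (SD, n = 3), a difference of 5.90 (SE 0.17, 95% interval 5.51 to 6.30; Holm-adjusted p from limma 5.73e-05), or 59.9-fold. The probe ranked 137 by p-value, and the difference was 5.65 within the first slide and 6.09 within the second.

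The Edn1 probe is printed at 10 spots on each array, which gives a measure of technical error that the other members lack. On the fetal arrays all 10 spots were well above background, with mean processed signals of 1106, 1716 and 1219 and coefficients of variation of 6.83%, 2.94% and 3.74% over the spots. On the adult basal arrays the means were 22.4, 16.4 and 15.6, with coefficients of variation of 15.2%, 13.6% and 19.6%, and 10, 6 and 1 of the 10 spots were well above background. Most spots were thus above background on 2 of the 3 adult basal arrays. The size of the fold change rests on this dim signal: it fell to 3.87 log2 units with a normexp correction of the median spot intensity, which adds an offset of 50, and to 5.05 with an offset of 16 added to the processed signal, and the call held in both.

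**Figure D2:**
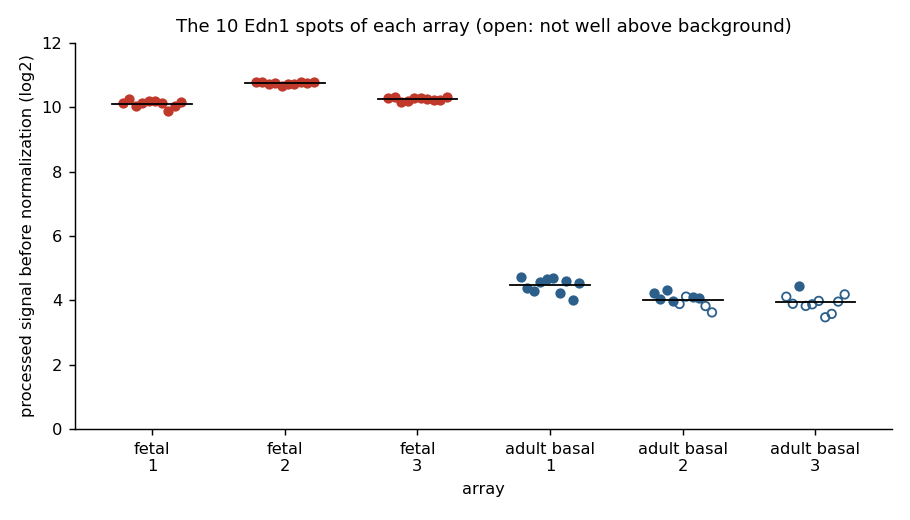
Log2 processed signal before normalization (y axis) of each of the 10 Edn1 spots on the 6 arrays (x axis), red for fetal and blue for adult basal, with open points for spots not well above background and bars for the mean. All fetal spots are filled and tightly grouped, whereas 4 spots of adult basal replicate 2 and 9 of adult basal replicate 3 are open.

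Edn3, the Ednrb ligand known from neural crest development, was at background on all 6 arrays. Its signal was 1.65, 2.36 and 1.63 in fetal and 1.63, 1.73 and 1.62 in adult basal cells, and no fold change is given.

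Of the 5 tested probes of the 6 genes, 2 were called, 1 in each direction, and the groups did not overlap for any of the 5, beside 11.1% called and 69% without overlap among all tested probes. The 4 receptor probes, of Oxtr, Ednra and (with both its probes) Ednrb, were all higher in adult basal cells. The Edn1 probe, the single tested ligand probe of the 6 genes, was higher in fetal cells. The ligand genes Edn2 (-1.40) and Oxt (-0.44), outside the 6, had the higher mean in adult basal cells and were not called. The direction of all 5 differences held under every alternative setting that gave a value.

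**Figure D3:**
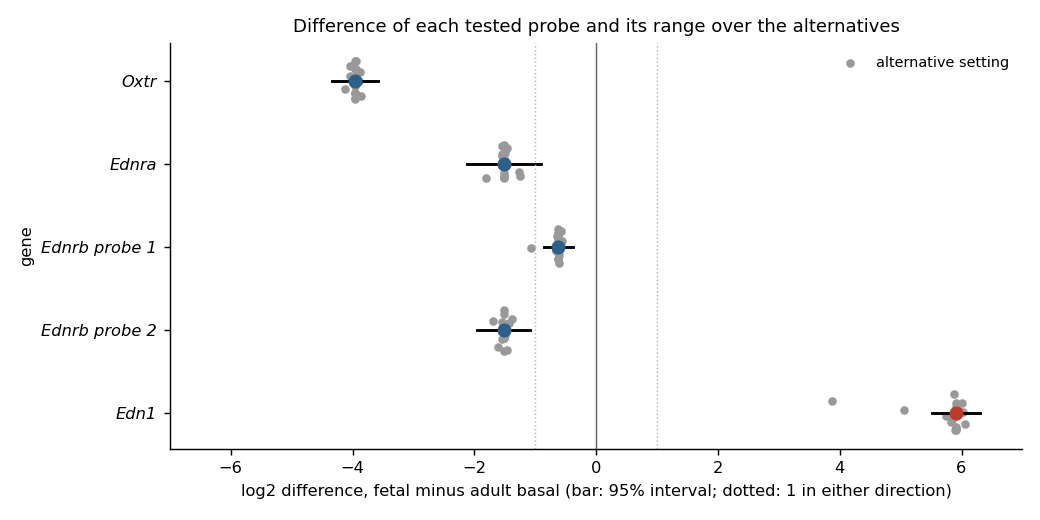
Log2 difference, fetal minus adult basal (x axis), of the 5 tested probes (y axis) as the estimate (blue where higher in adult basal and red where higher in fetal cells), with its 95% interval (bar) and the values under alternative settings (grey points). The Edn1 points at 3.87 and 5.05 come from the normexp correction and the offset of 16, and every other point lies on the same side of 0 as its own estimate.

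The windows directly upstream of the transcription start of Oxtr and Edn1, the genes called in opposite directions, are shown so that their sequences can be set side by side. They are the 250 bases before the start in RefSeq on GRCm38.p6, on the strand of the gene and 5′ to 3′, at chr6:112489826-112490075 (- strand) for Oxtr and chr13:42301226-42301475 (+ strand) for Edn1. Capitals mark the palindromic E-box CACGTG.
Oxtr: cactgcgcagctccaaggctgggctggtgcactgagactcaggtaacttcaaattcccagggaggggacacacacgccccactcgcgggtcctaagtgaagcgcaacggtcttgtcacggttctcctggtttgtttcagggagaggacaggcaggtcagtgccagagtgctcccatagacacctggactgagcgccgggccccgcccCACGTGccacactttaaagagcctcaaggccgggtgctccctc
Edn1: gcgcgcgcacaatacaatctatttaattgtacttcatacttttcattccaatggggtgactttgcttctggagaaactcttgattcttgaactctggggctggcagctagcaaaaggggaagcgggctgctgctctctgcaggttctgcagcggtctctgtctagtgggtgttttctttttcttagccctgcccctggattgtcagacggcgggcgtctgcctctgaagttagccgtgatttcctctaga
The Oxtr window held 12 CpG dinucleotides and the Edn1 window 9, against a median of 6 over 32851 promoter windows of the same length. CACGTG, which begins 43 bases before the Oxtr start, was found in 6.02% of those windows and not in that of Edn1. Neither window held TATAAA (in 12.4% of windows), TGANTCA (6.75%), AGATAA (9.99%) or the CArG box (1.47%), each searched on both strands. These matches describe letters only, since no binding was measured.

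Over 6 arrays, the genes whose centred profile lay closest to that of Oxtr, by the root mean square difference among 15263 genes, were Ero1b (0.114), Lmod1 (0.121) and Rab11fip5 (0.130). Ero1b encodes a thiol oxidase of the endoplasmic reticulum, Lmod1 an actin-binding leiomodin of smooth muscle, and Rab11fip5 an effector of Rab11 in vesicle recycling. Their differences were -4.04, -4.003 and -3.93. Among those closest to Edn1 were Cdkn1c (0.207) and Rrm2 (0.235), with differences of 6.003 and 5.96. Cdkn1c encodes the cell cycle inhibitor p57 and Rrm2 the small subunit of ribonucleotide reductase. With 3 arrays in each population, likeness here is mainly a difference of the same size.

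Further ligands, receptors and peptidases of the system were mostly not called, and the exceptions were peptidases. Of 12 listed genes, 8 passed the filter on dim probes, 2 were called higher in adult basal cells and none higher in fetal cells, beside 5.18% and 5.92% of all tested probes. Mme, the membrane peptidase neprilysin, which degrades endothelins, was at 7.44, 7.37 and 7.11 in fetal and 10.05, 10.17 and 10.19 in adult basal cells. Its difference was -2.83 (SE 0.12; Holm-adjusted p from limma 9.85e-04), and its other probe gave -2.75. Ecel1, a peptidase named for its likeness to the endothelin converting enzymes, was at 7.67, 7.31 and 7.20 in fetal and 12.42, 11.85 and 11.18 in adult basal cells. The Ecel1 difference was -4.42 (SE 0.30; Holm-adjusted p from limma 0.0238), a call that was lost under 8 of 17 alternatives.

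The converting enzymes themselves were not called. Ece1 was at 9.11 ± 0.10 in fetal and 9.09 ± 0.41 in adult basal cells (SD, n = 3 each), and Ece2 at 6.21 ± 0.05 and 6.45 ± 0.35. Their arrays overlapped between the populations, and the 95% intervals of the differences ran from -0.45 to 0.50 for Ece1 and from -0.66 to 0.17 for Ece2. Lnpep, which encodes the oxytocin-cleaving aminopeptidase oxytocinase, differed by -1.30 (SE 0.13; Holm-adjusted p from limma 0.377). Edn2, the third endothelin gene, was at 8.41, 8.46 and 8.81 in fetal and 9.31, 10.77 and 9.81 in adult basal cells. Its difference of -1.40 (SE 0.34) was not called, with a Holm-adjusted p from limma of 1. Oxt, which encodes oxytocin itself, differed by -0.44 (SE 0.15) and was not called.

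The rest of the list was dim or incomplete. Avpr2, the renal vasopressin receptor, had values only on fetal replicate 2 (6.21) and adult basal replicates 2 and 3 (7.59 and 6.72), because its spots on the other 3 arrays were outliers and were dropped, and its fitted difference of -0.94 (SE 0.41) was not called and turned to 0.47 with the deposited values. Avp, Avpr1b, Kel and Phex were below the limit for dim probes in both populations, and Phex was above background on none of the arrays.

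Downstream of the receptors, genes of the Gq arm were called about as often as all tested probes (11.1%). Those called were higher in fetal cells. Of 23 listed genes of Gq, phospholipase C, inositol trisphosphate and protein kinase C signalling, 20 were tested, 2 were called higher in fetal cells and none higher in adult basal cells, beside 5.92% and 5.18% of all tested probes. Plcb4, a Gq-activated phospholipase C, was at 9.55, 9.61 and 9.43 in fetal and 5.64, 6.01 and 6.14 in adult basal cells. Its difference was 3.60 (SE 0.15; Holm-adjusted p from limma 6.91e-04), and its other probe gave 3.96. Gna14, a Gq family alpha subunit, was at 7.81, 7.97 and 7.71 in fetal and 5.05, 4.53 and 5.06 in adult basal cells. The Gna14 difference was 2.95 (SE 0.17; Holm-adjusted p from limma 0.00710), a call lost under 6 of 16 alternatives. The remaining 18 tested genes of the arm were not called, and the arm as a whole had no lean to the fetal side. Of the 20 tested genes, 11 had the higher mean in adult basal cells, and the median difference was -0.07. Genes with larger uncalled differences, named after their values were seen, were the calcium sensor Stim1 (-2.67), the cation channel Trpc1 (-2.08), the phospholipase Plcb1 (-1.37) and the protein kinases C Prkca (-1.37) and Prkcd (-1.36), each higher on every adult basal array.

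The arm of Gi, G12 and G13 and the myosin light chain held calls in the adult basal direction, 4 of 19 tested genes, with none in the fetal direction, beside 5.18% and 5.92% of all tested probes. By mean, 11 of the 19 were higher in adult basal cells and 8 in fetal cells. Among the 8 was the calmodulin gene Calm3 (2.12), and among the 11 the Gi alpha subunit gene Gnai1 (-2.29). Both were named after their values were seen, and neither was called. Mylk, the myosin light chain kinase, was at 7.51, 7.48 and 7.34 in fetal and 11.94, 11.64 and 12.25 in adult basal cells. Its difference was -4.50 (SE 0.16; Holm-adjusted p from limma 3.07e-04). Ppp1r14a, which encodes the myosin phosphatase inhibitor CPI-17, differed by -3.48 (SE 0.16; adjusted p 0.00183 from limma), and Camk2d, a calmodulin-dependent kinase, by -2.36 (SE 0.12; adjusted p 0.00282 from limma). The other Camk2d probes gave -2.37, which was called, and -0.86, which was not. The remaining call, named after its value was seen, was Ppp1r12a, the targeting subunit of myosin phosphatase, at -1.80 (SE 0.13; adjusted p 0.0415 from limma). That call was lost under 11 of 17 alternatives, and the other Ppp1r12a probe (-1.78) was not called.

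Among the regulators that end receptor signalling, 3 of 14 tested genes were called, in both directions, beside 11.1% of all tested probes. Arrb1, which encodes a beta-arrestin that uncouples and internalizes receptors, was at 11.46, 11.61 and 11.31 in fetal and 14.44, 14.50 and 14.33 in adult basal cells. Its difference was -2.97 (SE 0.12; Holm-adjusted p from limma 5.07e-04). The receptor kinase Grk5 differed by -1.63 (SE 0.11; adjusted p 0.0239 from limma). Rgs2, which shortens Gq signalling, was at 14.27, 14.22 and 14.17 in fetal and 11.36, 11.99 and 11.30 in adult basal cells, a difference of 2.67 (SE 0.19; adjusted p 0.0316 from limma), and its other probe gave 2.12. The calls of Grk5 and Rgs2 were each lost under 10 of 17 alternatives.

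Over these 4 lists, 11 of 61 tested genes were called (18.0%), 8 higher in adult basal and 3 higher in fetal cells, against the 11.1% of all tested probes. The lists were chosen with earlier results of these data known and count 1 probe per gene, so these shares are not strictly alike. The median difference of the 61 was -0.40, against -0.03 over all tested probes, and the median absolute difference 0.77 against 0.55. Mme, Plcb4, Mylk, Ppp1r14a and Arrb1 were called under each of the 17 alternatives, and Camk2d under all but the one without fetal replicate 1. The count of 11 was 5 without fetal replicate 1 and 6 without either of the other fetal arrays.

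**Figure D4:**
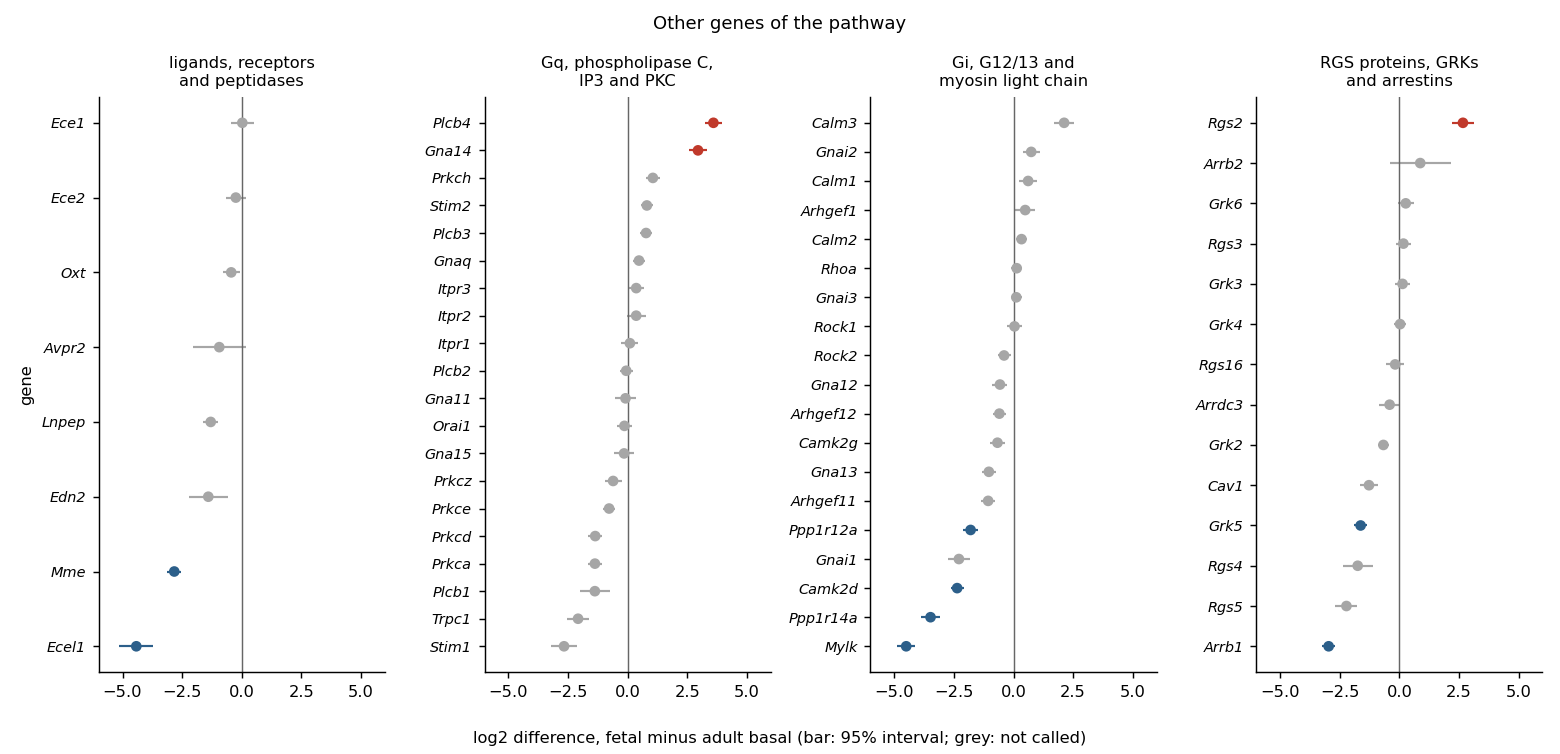
Log2 difference, fetal minus adult basal (x axis), with 95% intervals, of the 61 tested genes of 4 lists (y axis, 1 panel per list), in red where called higher in fetal cells, blue where called higher in adult basal cells and grey where not called. The 2 calls of the Gq arm are to the right, the 4 calls of the Gi, G12 and G13 and myosin light chain arm to the left, and Rgs2 is the only red point among the regulators.

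Markers of the cell types that are known to carry these receptors and ligands were read beside them, and their part in the differences was not tested. All 11 myoepithelial markers had the higher mean in adult basal cells, the direction of Oxtr, but the arrays overlapped for Krt14 and Trp63. Of 11 genes, 8 were called higher in adult basal cells and none in fetal cells, beside 5.18% and 5.92% of all tested probes. Among the 8 were Acta2 (-4.07), Tagln (-4.87), Cnn1 (-6.01) and Myh11 (-8.63), all contractile proteins, and the basal keratins Krt5 (-3.90, a call lost under 2 of 17 alternatives) and Krt17 (-3.08). Trp63, the basal transcription factor, differed by -0.08, Krt14 by -1.20 and Smtn by -1.30, none of them called. The summed signal of the list was 127762, 119162 and 110323 on the fetal and 1285890, 1254810 and 1240710 on the adult basal arrays, with Acta2 the brightest in adult basal and Smtn in fetal cells. The differences of this list ran from -8.63 for Myh11 to -0.08 for Trp63. That range is wide, and Oxtr (-3.96), Ednra (-1.51) and both Ednrb probes (-0.62 and -1.52) all lay within it.

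Some luminal markers were called, all in the direction of Edn1. Of 9 tested, 6 had the higher mean in fetal cells, and 3 were called higher in fetal cells and none in adult basal cells, beside 5.92% and 5.18% of all tested probes. These were Elf5 (7.55), a transcription factor of luminal progenitors, the receptor tyrosine kinase Kit (4.003) and the tight junction gene Cldn4 (2.65), whose call was lost under 6 of 17 alternatives. Krt8 and Krt18, the simple epithelial keratins, differed by 0.44 and 0.58, not called. Krt19 (-1.22), Muc1 (-0.48) and Prlr (-0.35) had the higher mean in adult basal cells and were not called. The summed signal was 191110, 194412 and 152670 against 127762, 121907 and 121671, with Krt18 the brightest in both populations.

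Endothelial cells are a known source of Edn1, and none of their 7 tested markers was called, beside 11.1% of all tested probes. Of 7 tested genes, 6 had the higher mean in adult basal cells, and the median difference was -1.40. Emcn (-1.79), Vwf (-1.56) and Cldn5 (-1.40) were higher on every adult basal array, whereas the arrays overlapped for Kdr (-0.04) and Pecam1 (-0.14). Egfl7, an endothelial secreted protein gene, had the direction of Edn1, at 11.03 ± 0.13 in fetal and 10.04 ± 0.24 in adult basal cells (SD, n = 3 each). Cdh5, the endothelial cadherin, was at 3.62, 4.49 and 6.36 in fetal and 7.49, 7.27 and 7.81 in adult basal cells. Tek and Tie1 were at background on every fetal array and above it on 3 and 2 adult basal arrays, and Erg was at background on all 6. The summed signal of the list was 14330, 12998 and 15071 in fetal and 14220, 15045 and 13004 in adult basal cells, most of it from Kdr, which was at 13.45 and 13.49.

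Mural cells and fibroblasts, which can carry Ednra, had mostly higher means in adult basal cells, the direction of Ednra. The share called among all tested probes was 11.1%. Of 8 tested mural genes, 7 had the higher mean in adult basal cells. Pdgfrb was called higher in adult basal cells (-4.34) and Notch3 in fetal cells (4.70), while Rgs5 (-2.22), Anpep (-2.62) and Cspg4 (-0.07) were not called. Des was at background on every fetal array and above it on all 3 adult basal arrays, and Kcnj8 was at background on all 6. The summed mural signal was 53487, 50283 and 50020 in fetal and 91178, 91776 and 92497 in adult basal cells, with Mcam the brightest in both. Of 10 fibroblast genes, only Dcn was called (-3.78, higher in adult basal cells, a call lost under 1 of 17 alternatives), and 9 of the 10 had the higher mean there. The summed fibroblast signal was 9073, 9129 and 11148 in fetal and 19342, 23030 and 29301 in adult basal cells, with Fbln1 the brightest in fetal and Dcn in adult basal cells.

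Neural crest derivatives, the best known site of Ednrb and Edn3, were measured through melanocyte and Schwann cell genes. None of 6 tested melanocyte genes was called, beside 11.1% of all tested probes. Of the 6, 5 had the higher mean in fetal cells, opposite to Ednrb. Dct, an enzyme of melanin synthesis, was at 6.83 ± 0.74 in fetal and 4.57 ± 0.29 in adult basal cells (SD, n = 3 each), a difference of 2.27, and Mitf (0.87), Pmel (0.44) and Mlana (0.32) were also higher on every fetal array. Tyrosinase, Tyr, was at 10.13 and 10.28 with overlapping arrays, while Tyrp1 and Gpr143 were at background on all 6 arrays. The summed melanocyte signal overlapped between the populations, at 14220, 14998 and 17633 in fetal and 15903, 11919 and 13215 in adult basal cells. Most of it came from Sox10 (means 13.61 and 13.44), so the sum mainly follows that gene and says little about the others. Of 6 tested Schwann cell genes, Erbb3 was called higher in fetal cells (3.01) and none in adult basal cells, beside 5.92% and 5.18% of all tested probes. S100b was at 6.95 ± 0.40 in fetal and 3.36 ± 0.98 in adult basal cells (SD, n = 3 each) and was not called. It was above background on only 1 of the 3 adult basal arrays. Ngfr differed by -0.68, not called. The summed Schwann signal was 13307, 13838 and 16433 in fetal and 15057, 10543 and 11938 in adult basal cells. It again came mostly from Sox10, read by the same probe as in the melanocyte list. Cdh19 and Foxd3 were at background on all 6 arrays.

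**Figure D5:**
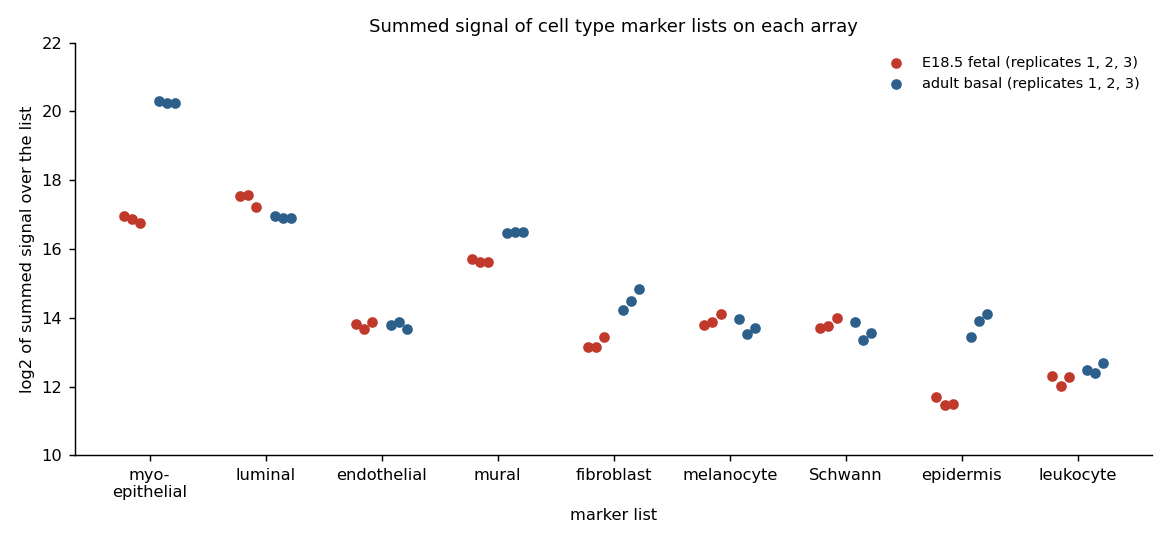
Log2 of the summed quantile normalized signal (y axis) of 9 lists of cell type markers (x axis) on the 3 fetal (red) and 3 adult basal (blue) arrays, in order of replicate number. The myoepithelial sum is higher on every adult basal array, as are the mural, fibroblast, epidermal and leukocyte sums. The luminal sum is higher on every fetal array, and the endothelial, melanocyte and Schwann sums overlap. Most of the endothelial sum comes from Kdr, and most of the melanocyte and Schwann sums from Sox10.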

How the data were processed

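The authors scanned the arrays with Feature Extraction 11.0.1.1, and the deposited scanner files hold linear processed intensity with background and spatial trends removed, the median and background intensity, and spot flags. The authors also deposited log2 values, quantile normalized in GeneSpring, which were used as an alternative. Each deposited column followed its own array (lowest r 0.99988, against at most 0.937 for another array).

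Control and outlier spots were dropped, log2 processed signals were averaged per probe, and the 6 arrays were quantile normalized. Accessions matched 27235 of 55681 probes to 20660 genes in a RefSeq table (GRCm38.p6). Probes below the boundary between the lowest and middle of 3 k-means clusters (5.95; 100 starts, seed 1) in both populations were removed. Differences were fitted with limma 3.58.1 in R 4.3.3. A call needed a Holm-adjusted p no higher than 0.05 and a difference of at least 1 log2 unit. For genes with several probes, the brightest was used. Slide was read from the file headers. Promoter windows came from RefSeq, and summaries and plots were made in Python 3.11.15 with matplotlib 3.10.9. The fit was tested on simulated data.

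The 6 genes, the 13 gene lists, the alternatives and the rule for named genes were chosen with earlier results of these data known. That rule named all measured ligands, receptors and peptidases, in each further signalling list the 3 called genes of largest difference per direction, the 3 genes most like each called member, the sort antigens and the marker genes; 1 gene it named is not reported here. A replicate number given to both populations was not used to pair samples. Correlations of deviations were -0.03, 0.09 and 0.05 for equal numbers and ran from -0.13 to 0.12 for unequal numbers. With 3 arrays in each population these values cannot exclude shared handling. Precision is limited by 3 arrays in each population, and p-values measure the spread between these.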

Additional observations from a re-analysis of the deposited data

How the results depend on the processing

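Oxtr (-4.12 to -3.87) and Edn1 (3.87 to 6.06) kept their direction and call under all 18 alternatives, and Ednrb probe 1 (-0.66 to -0.56, and -1.07 with the probes averaged) was never called. Under Benjamini-Hochberg adjustment Ednra (-1.51) and the second Ednrb probe (-1.52) were also called. Counted by the brightest probe of each gene, 2 members were called, and 3 with that adjustment. Probes called over all tested numbered 1182 with no low-signal filter, 6133 with Benjamini-Hochberg adjustment and 1302 with the replicate block, where signalling genes called numbered 6, 26 and 7. The latter were 7 with all probes or slide as a block. With 1 array left out, called probes ranged from 945 (without fetal replicate 1) to 1981 (without adult basal replicate 2), with 968 and 1060 without fetal replicates 2 and 3, and 1450 and 1333 without adult basal replicates 1 and 3. Signalling genes ranged from 5 to 11. The replicate block changed no call of the 6 genes. Among differences not called, Avpr2 turned from -0.94 to 0.47 with the deposited values, and Itga6 from 0.01 to -0.0093 with normexp. With 1 array left out, Ece1 ranged from -0.18 (without adult basal replicate 2) to 0.23, at -0.02 without fetal replicate 3, and Itga6 from -0.0836 (without adult basal replicate 2) to 0.13, at -0.03 without fetal replicate 1 and -0.01 without adult basal replicate 3. The cause was not tested. Normexp was run on the median spot intensity. Ednrb probe 2 had no value with normexp or the offset of 16, being below the boundary there. Avpr1a and Edn3, at background, allow no statement on direction.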

Other observations

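The lists for leukocytes and epidermis stood outside the comparisons above. None of 7 tested leukocyte genes was called, beside 11.1% of all tested probes, and all 7 had the higher mean in adult basal cells. For some of them, but not all, 1 array stood above the others. On adult basal replicate 3, Cd52, a lymphocyte and macrophage surface antigen, was at 9.80, against 8.19 and 7.39 on the other adult basal arrays and 3.33 to 5.07 on the fetal arrays. Tyrobp, a myeloid adaptor, was at 9.64 there, against 7.82 and 7.16, and Lyz2, the macrophage lysozyme, at 7.95 against 6.26 and 5.61. Laptm5 was also highest there (7.86). In contrast, Cd3e (12.01) and Cd79a (7.34) were lower on adult basal replicate 3 than on the other adult basal arrays. Ptprc was at 7.05 on that array and at 7.29 on adult basal replicate 2. The summed leukocyte signal was 5092, 4164 and 4980 in fetal and 5673, 5378 and 6587 in adult basal cells, most of it from Cd3e, which was at 12.07 and 12.13. Without adult basal replicate 3, Oxtr and Edn1 kept their calls.

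Among the epidermal genes, 5 were tested, and 11.1% of all tested probes were called. The suprabasal keratin Krt10 was called higher in fetal cells (1.47), a call lost under 10 of 17 alternatives and not made by its other probe (0.98), and the basal and hair follicle keratin Krt15 higher in adult basal cells (-3.85), a call lost under 1. Krt1 (1.95), Krtdap (4.11) and Lor (0.87) were not called. The summed epidermal signal was 3285, 2798 and 2906 in fetal and 11048, 15349 and 17840 in adult basal cells, with Krt15 the brightest in the latter.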
